A study of Mus musculus with 6 samples.

Results

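Cytochrome P450 enzymes are heme proteins that insert an oxygen atom into their substrates, using electrons passed on by NADPH-P450 reductase, cytochrome b5 or, in mitochondria, adrenodoxin. Some make or degrade bile acids, steroid hormones, vitamin D, retinoic acid or signalling lipids derived from arachidonic acid, and others oxidise drugs and dietary compounds. In the gut wall they sit mainly in absorptive epithelial cells, where they meet what is taken up from the lumen.

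The P450 genes were taken from the deposited table of expression by gene as every row whose symbol begins with Cyp and a digit and whose transcript class includes protein coding or nonsense-mediated decay. Cyp51, a step of cholesterol synthesis, was left out. Of the 36977 genes in the table, 74 met this rule, and 27 of the 74 averaged 0.5 FPKM or more across the 6 libraries. FPKM are fragments scaled to the length of the transcript and to the fragments mapped in each library, so levels can be compared between genes. The 27 were the members that entered the test, and the other 47 are described by level alone. The lowest mean among the 27 was 0.863 FPKM, for Cyp4f17, and the highest among the 47 was 0.462 FPKM, for Cyp2j9. No member was listed at 0 in all 6 libraries. This held for all 36977 genes in the table, so genes without any signal may be missing from it.

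The libraries came from colonic tissue of wild-type mice labelled DSS (3 libraries, replicates 1, 2 and 4) or DSS+DCA (3 libraries, replicates 1, 2 and 4). Dextran sulfate sodium, DSS, is a polymer that injures the colonic epithelium and is used to model colitis, and the mice received it at 2% for 7 days. Deoxycholic acid, DCA, is a secondary bile acid made by gut bacteria and was given by enema. The treatment text is worded alike for all 6 samples, and what the DSS mice received in place of the DCA enema, the strain and the age are not stated. The labels do not tie the libraries to separate mice, so p-values measure the spread between these libraries, which may be technical. The comparison asks how DCA, added to DSS, changed gene expression in the colon.

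The labels also call the cells intestinal epithelial, and the libraries held epithelial markers at high levels together with muscle RNA that differed between libraries. The summed level of 9 general epithelial markers was 5989 to 7412 FPKM in DSS and 2987 to 5276 FPKM in DSS+DCA, so the groups did not overlap. The summed level of 8 smooth muscle markers ran from 41.7 to 817 FPKM in DSS and from 110 to 1864 FPKM in DSS+DCA. Mitochondrially encoded transcripts took 29.4% to 31.4% of the summed FPKM of each DSS library. Their share was 30.5% in the first DSS+DCA replicate, 47.6% in replicate 2 and 46.7% in replicate 4. In bulk tissue, fewer cells of a type and less RNA per cell cannot be told apart. The replicates of DSS were not equally far apart: DSS replicate 4 lay between DSS replicates 1 and 2 in 18 of the 27 tested P450 genes. Its median absolute distance from their mean was 0.09 on the log2 scale, against 0.25 between replicates 1 and 2.

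The sequences below are shown because the 1 P450 gene that passed the test, Cyp2d26, lies in a cluster of close relatives whose transcripts can be confused. Each line gives 30 bases of coding strand that encode the loop of the protein that holds the heme, read from the GENCODE M21 transcript. The codon in capitals is that of the cysteine whose sulfur binds the heme iron. Cyp2d26, Cyp2d22 and Cyp2d9 share the first line, and Cyp2d10 and Cyp2d34 share the second.
Cyp2d26: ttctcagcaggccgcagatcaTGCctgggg
Cyp2d10: ttctcagcaggccgcagatcaTGCctgggt
Cyp2d12: ttttcagcaggccgcagatcaTGCctgggg
Cyp2c55: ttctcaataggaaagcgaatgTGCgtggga
Cyp27a1: ttcggctatggggttcggtctTGCctgggt
Cyp2e1: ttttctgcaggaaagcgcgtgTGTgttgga
Within the CYP2D cluster the loop differed from that of Cyp2d26 by 1 base in Cyp2d10, Cyp2d34 and Cyp2d12, whereas Cyp2c55 differed by 12 bases, Cyp27a1 by 14 and Cyp2e1 by 15. The loop was found in 24 of the 27 tested genes. It was not found by this pattern in Cyp20a1, Cyp2s1 and Cyp39a1, which says only that their letters differ from the pattern.

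The starts of Cyp2d26 and Cyp2d10 are shown because in these members of the CYP2D cluster the groups did not overlap, in opposite directions. Only Cyp2d26 passed the test. Each line is the RefSeq promoter window of GRCm38.p6, on the minus strand. It runs from 250 bases before the annotated start used for the window to 50 bases after it. For Cyp2d26 the start in GENCODE M21, at base 82794294, lies inside the window but upstream of that start. Capitals mark TATAA or its reverse complement TTATA, which overlap in TTATAA.
Cyp2d26, chr15:82794196-82794495: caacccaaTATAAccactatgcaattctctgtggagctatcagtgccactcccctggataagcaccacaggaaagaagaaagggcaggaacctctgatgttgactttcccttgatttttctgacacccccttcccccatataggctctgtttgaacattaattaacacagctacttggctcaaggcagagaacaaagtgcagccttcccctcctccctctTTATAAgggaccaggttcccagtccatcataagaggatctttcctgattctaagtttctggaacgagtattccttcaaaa
Cyp2d10, chr15:82407145-82407444: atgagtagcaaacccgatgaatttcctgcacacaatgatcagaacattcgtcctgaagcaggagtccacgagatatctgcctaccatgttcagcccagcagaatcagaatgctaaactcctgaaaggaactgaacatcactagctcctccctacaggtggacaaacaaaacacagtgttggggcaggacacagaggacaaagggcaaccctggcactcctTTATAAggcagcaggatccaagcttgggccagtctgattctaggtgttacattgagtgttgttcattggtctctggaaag
Aligned over 258 bases, the windows of Cyp2d26 and Cyp2d10 were 66.7% identical, whereas Cyp2d10 and Cyp2d9 were 85.1% identical over 296 bases. Of the 27 tested genes, 22 had a promoter window. These 22 genes have 27 windows. TATAA or TTATA was present in 13 of the 27 windows, those of 11 genes, against 24.9% of all 32851 mouse promoter windows. Searched on both strands, GCGTG, the core of the site bound by the aryl hydrocarbon receptor, was present in 5 of the 27 windows against 32.4% of all windows. AGGTCA, the half-site of many nuclear receptors, was present in 3 of the 27 windows, those of Cyp3a25 and Cyp3a44, against 16.3% of all windows. These matches describe letters only.

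Of the 27 tested P450 genes, 1 passed the test, Cyp2d26, which rose, and none fell. The other 26 had adjusted p-values from 0.164 to 0.932 (limma on log2(FPKM + 1), Benjamini-Hochberg adjustment over the 14611 genes that averaged 0.5 FPKM or more). Across all tested genes 0.561% were called, 0.13% higher and 0.431% lower, at an adjusted p under 0.05. At an unadjusted p under 0.05 there were 9 P450 genes, 5 higher and 4 lower. The background was 16.7% of all tested genes, 4.26% higher and 12.4% lower. The fitted value was higher in DSS+DCA for 15 P450 genes and lower for 12, where 39.5% of all tested genes had a higher fitted value. The median log2 change was 0.13 over the 27 and -0.09 over all tested genes. Without DSS+DCA replicate 1 it was -0.21 over the 27, beside -0.19 over all tested genes. With each library rescaled to its nuclear protein-coding total, the medians were 0.35 and 0.23. The calls over all genes then numbered 78 higher and 45 lower, in place of 19 higher and 63 lower. Cyp2d26 was called under this rescaling and under TMM-style scaling, but not under quantile normalization (adjusted p 0.0562, limma).

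**Figure D1:**
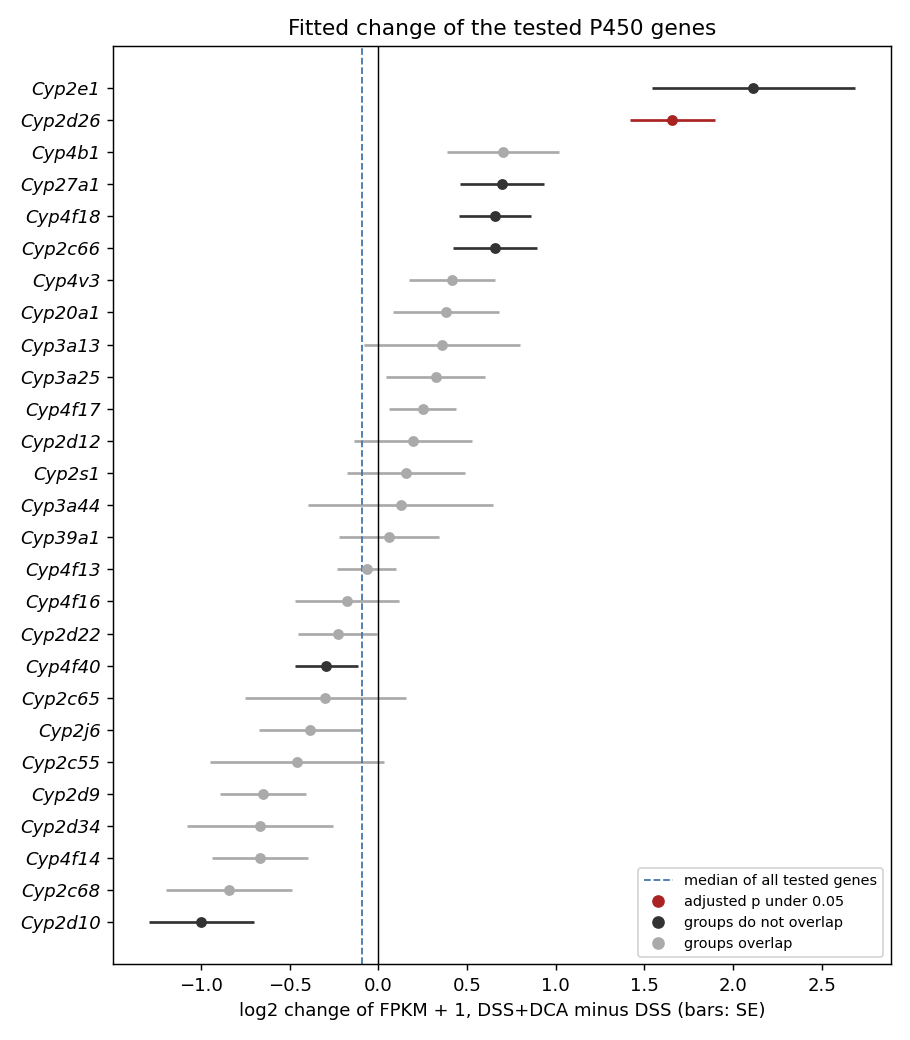
Fitted log2 change of FPKM + 1 (DSS+DCA minus DSS, horizontal axis) for each of the 27 tested P450 genes, with bars of 1 SE and the median of all tested genes as a dashed line. Cyp2e1 at 2.11 and Cyp2d26 at 1.66 stand to the right, Cyp2d10 at -0.999 stands farthest to the left, and Cyp2d26 is the only gene coloured as called.

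The groups did not overlap in 7 of the 27 genes, against 23.6% of all tested genes. DSS+DCA was above DSS in 5 of them, Cyp2d26, Cyp2e1, Cyp27a1, Cyp4f18 and Cyp2c66, against a background of 5.8%. It was below DSS in 2, Cyp2d10 and Cyp4f40, against a background of 17.8%. Cyp2e1 had a DSS mean under 0.5 FPKM and entered the test only through its DSS+DCA values, so it had to differ. Among the 26 genes whose DSS mean reached 0.5 FPKM, 4 were above, 2 were below and the median log2 change was 0.09. The backgrounds above cover all tested genes, with no such limit on the DSS mean, so they are not matched to the 26. Cyp2e1 is also among the 15 P450 genes with a higher fitted value and the 5 higher at an unadjusted p under 0.05 (limma). With fewer libraries, groups separate more often in all genes. The count of P450 genes was 11 without DSS replicate 2, beside 31.5% of all tested genes, and 13 without DSS+DCA replicate 1 or 2, beside 46.3% and 38.3%.

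The DSS+DCA libraries did not move together across the family. DSS+DCA replicate 1 was the highest of the 6 libraries in 11 of the 27 genes, and DSS+DCA replicate 2 was the lowest in 12. Relative to the mean of DSS, the median log2 difference of the 27 genes was 0.39 in DSS+DCA replicate 1, where 19 genes were above, and that of all tested genes was 0.12. In replicate 2 it was -0.18 with 10 genes above, beside -0.22 for all genes. In replicate 4 it was 0.01 with 14 genes above, beside -0.19 for all genes.

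**Figure D2:**
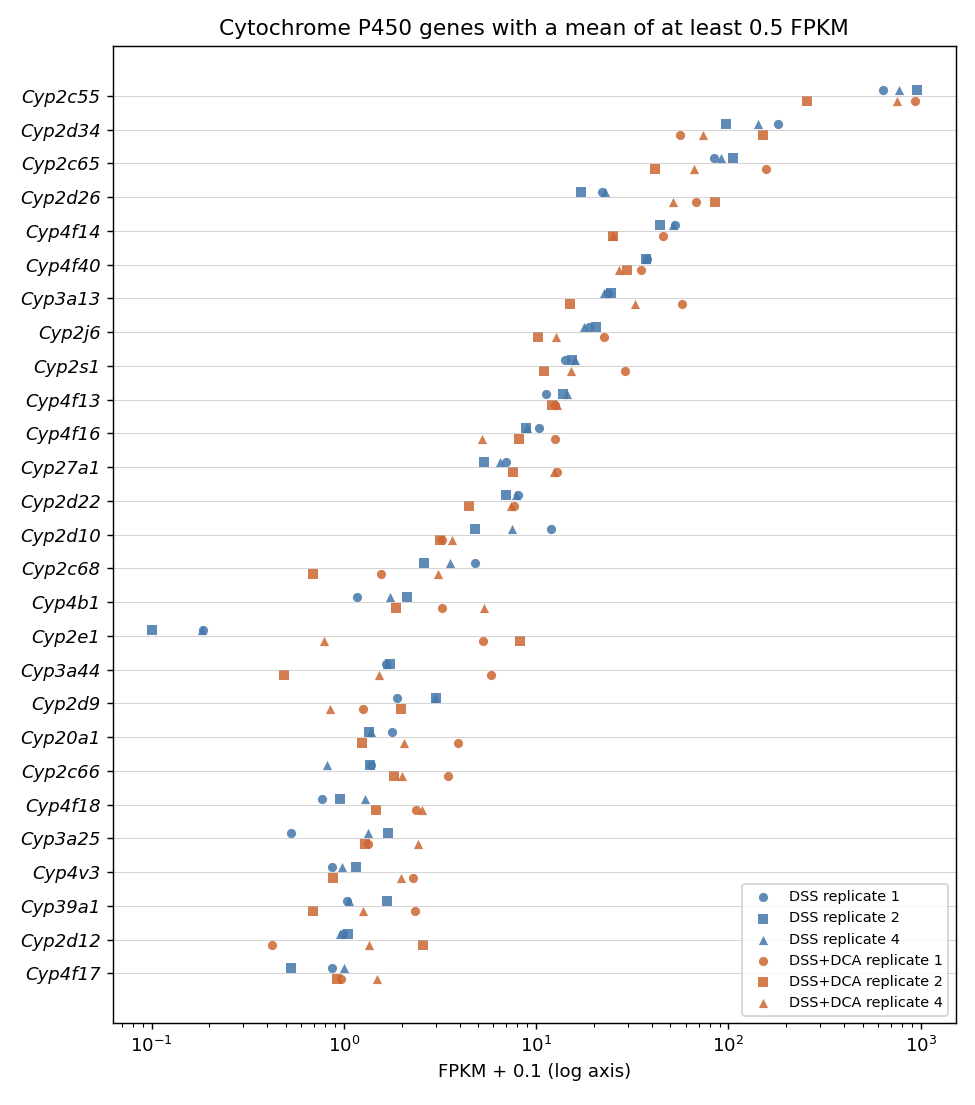
Level of each of the 27 tested P450 genes in each library, as FPKM + 0.1 on a log axis, in order of mean level; blue symbols are DSS and orange symbols DSS+DCA, and the symbol shape gives the replicate. Cyp2c55 lies between 257 and 960.0 FPKM, and separate blue and orange groups are seen in 7 genes, among them Cyp2d26 and Cyp2e1.

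Levels spanned from under 1 FPKM to those of Cyp2c55, with 14 genes averaging 5 FPKM or more and 7 averaging 20 FPKM or more. The 74 genes summed to 1143, 1382 and 1239 FPKM in DSS replicates 1, 2 and 4, and to 1497, 687 and 1130 FPKM in DSS+DCA replicates 1, 2 and 4. As a share of the FPKM of nuclear protein-coding genes this was 0.50%, 0.581% and 0.525% in DSS and 0.662%, 0.486% and 0.717% in DSS+DCA. On both scales the groups overlapped. Cyp2c55 alone made up 56.0%, 69.5% and 62.2% of the P450 sum in DSS and 62.8%, 37.4% and 66.8% in DSS+DCA.

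The CYP2D genes lie together on chromosome 15 and are relatives of human CYP2D6, which oxidises many drugs. Cyp2d26 (ENSMUSG00000022445, minus strand, chr15:82790101-82794294 in GENCODE M21 on GRCm38) was at 22.0, 17.1 and 22.8 FPKM in DSS and at 67.8, 85.4 and 51.4 FPKM in DSS+DCA. Every DSS+DCA library was above every DSS library, with a wide gap between the groups. The mean was 20.7 ± 3.09 FPKM in DSS and 68.2 ± 17.0 FPKM in DSS+DCA (SD, n = 3 each), a 3.30-fold higher level. The fitted log2 change was 1.66 ± 0.24 (SE), with an adjusted p of 0.0453 (limma). The direction held in all of the alternatives fitted, while the adjusted p was over 0.05 without DSS replicate 1 (0.193), 2 (0.167) or 4 (0.200), and without DSS+DCA replicate 4 (0.0846). It was also over 0.05 with a pseudocount of 0.1 (0.0504), with no filter on low genes (0.136) and under quantile normalization (0.0562).

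Cyp2d34, the most abundant CYP2D gene of the DSS libraries (chr15:82615965-82620946), was at 182, 97.4 and 143 FPKM in DSS and at 56.0, 152 and 73.3 FPKM in DSS+DCA. The groups overlapped, because DSS+DCA replicate 2 lay above 2 of the DSS libraries. The means were 141 ± 42.4 and 93.6 ± 50.9 FPKM, and the log2 change was -0.67 ± 0.41 with an adjusted p of 0.447 (limma). DSS replicate 2 was the lowest DSS library for both Cyp2d34 and Cyp2d26, and DSS+DCA replicate 2 was the highest DSS+DCA library for both. As a share of their joint level, Cyp2d26 was 10.8%, 15.0% and 13.7% in DSS and 54.8%, 36.0% and 41.2% in DSS+DCA. The joint level itself overlapped between the groups, at 204, 114 and 166 FPKM in DSS and 124, 237 and 125 FPKM in DSS+DCA.

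Cyp2d10 (chr15:82402846-82407195) was at 11.9, 4.70 and 7.38 FPKM in DSS and at 3.15, 3.07 and 3.57 FPKM in DSS+DCA. All DSS+DCA values were below all DSS values, and the DSS values were spread more widely than the DSS+DCA values. The mean was 7.99 ± 3.63 FPKM in DSS and 3.26 ± 0.271 FPKM in DSS+DCA, and the log2 change was -0.999 ± 0.30 with an adjusted p of 0.186 (limma). Rescaled to the nuclear protein-coding total, the change was -0.62 (adjusted p 0.260, limma), and no P450 gene then lay below DSS without overlap. Cyp2d22 (chr15:82370527-82380260), was at 8.00, 6.88 and 7.72 FPKM in DSS and at 7.59, 4.38 and 7.31 FPKM in DSS+DCA, which overlap.

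Cyp2d9, known in male mouse liver as a testosterone 16-alpha hydroxylase, had means of 2.53 ± 0.639 FPKM in DSS and 1.26 ± 0.571 FPKM in DSS+DCA, a log2 change of -0.65 ± 0.24 and an adjusted p of 0.261 (limma). Cyp2d12 had means of 0.902 ± 0.0450 and 1.35 ± 1.07 FPKM, with DSS+DCA values both below and above all of DSS. Cyp2d11 was the only CYP2D member under 0.5 FPKM, with a highest library value of 0.109 FPKM. The 7 CYP2D members summed to 227, 129.998 and 185 FPKM in DSS and 136, 249 and 138 FPKM in DSS+DCA, so the subfamily sum overlapped while the share of Cyp2d26 in it did not, at 9.71%, 13.2% and 12.3% against 49.8%, 34.3% and 37.4%.

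**Figure D3:**
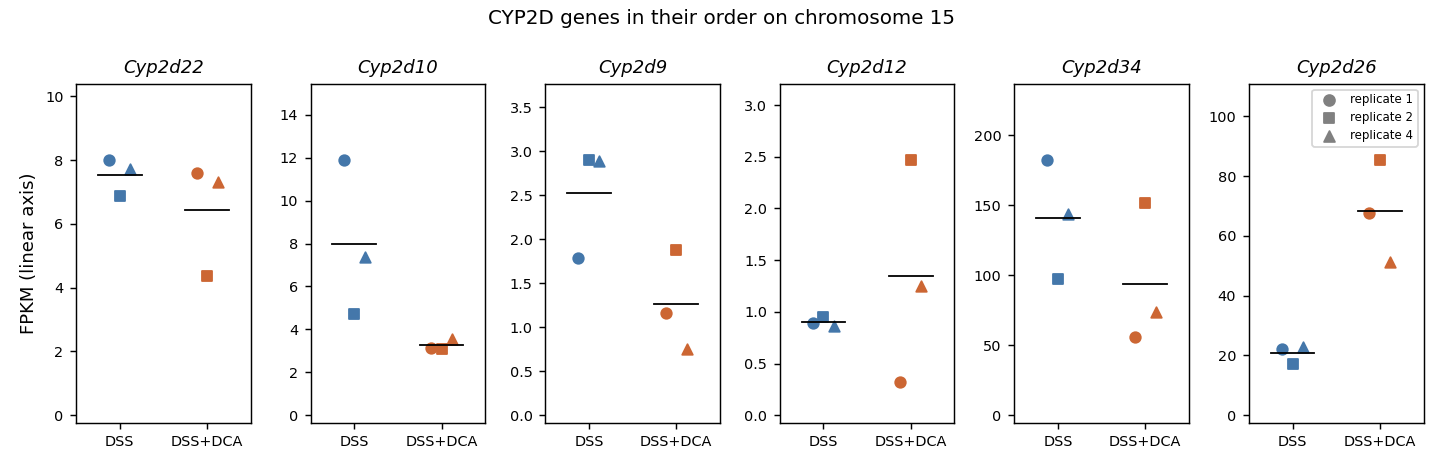
FPKM on linear axes for the 6 tested CYP2D genes in their order along chromosome 15, by group and replicate; the bars are group means. Cyp2d26 is at 17.1 to 22.8 FPKM in DSS and 51.4 to 85.4 FPKM in DSS+DCA, Cyp2d10 is at 4.70 to 11.9 FPKM and 3.07 to 3.57 FPKM, and the groups of the other 4 genes overlap.

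Close relatives can exchange reads when fragments map to more than 1 gene. Of all stretches of 50 bases in the coding sequence of Cyp2d26, 12.0% were found unaltered in another gene, most often in Cyp2d22 (6.06%), and 1.10% in Cyp2d34. For Cyp2d34 the share was 12.9%. For Cyp2d10 it was 43.4%, with 28.2% found in Cyp2d11, the largest overlap with a single relative in this cluster. Over the 27 tested genes, 8 shared more than 25% of their stretches, so that their levels are uncertain (Cyp2c68, Cyp2d10, Cyp4f16, Cyp2d9, Cyp3a25, Cyp3a44, Cyp2c65 and Cyp2c66). Another 7, among them Cyp2e1, Cyp27a1 and Cyp2c55, shared none. The sources used here do not say how fragments with several matches were counted.

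**Figure D4:**
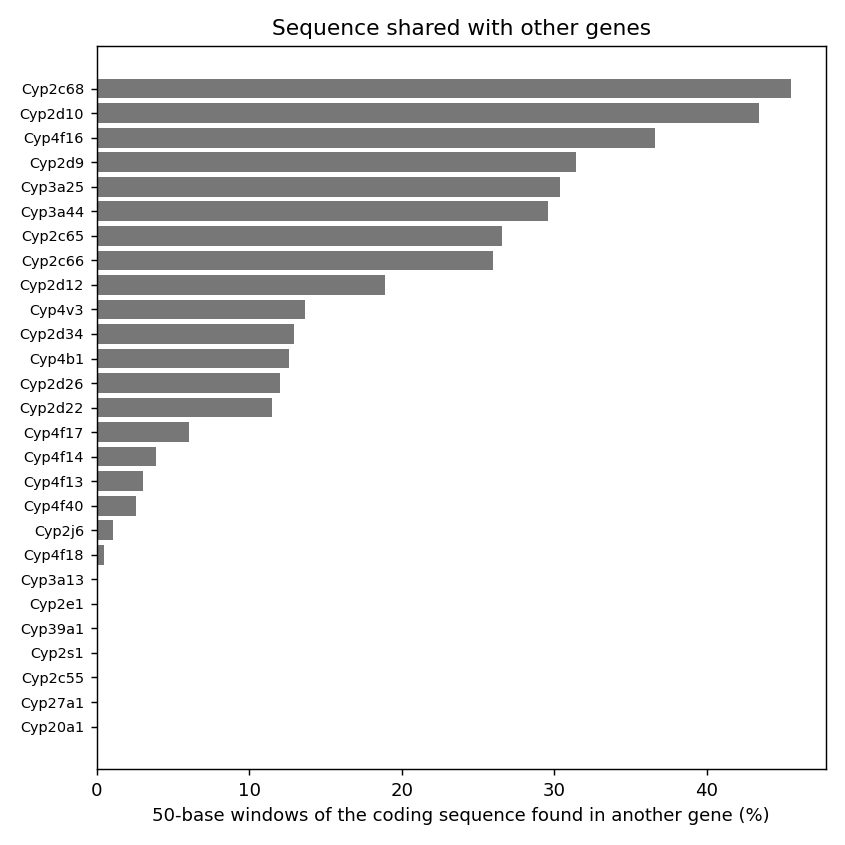
Share of 50-base stretches of the coding sequence that occur unaltered in another gene of GENCODE M21, for each tested P450 gene. Cyp2c68 at 45.5% and Cyp2d10 at 43.4% are the highest, Cyp2d26 is at 12.0%, and 7 genes are at 0.

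The CYP2C and CYP2J enzymes hydroxylate or epoxidise arachidonic acid and other fatty acids. Cyp2c55, the dominant P450 transcript of these colons (chr19:39007019-39042693), was at 640.4, 960.0 and 770.3 FPKM in DSS and at 940.4, 257 and 755 FPKM in DSS+DCA. The groups overlapped, and DSS+DCA replicate 2 alone was far below the rest. The means were 790.2 ± 161 and 651 ± 353 FPKM, and the log2 change was -0.46 ± 0.49 with an adjusted p of 0.667 (limma). Cyp2c65, a neighbour expressed in the gut (chr19:39061015-39093944), was at 83.9, 106 and 91.6 FPKM in DSS and at 156, 41.7 and 66.3 FPKM in DSS+DCA. Its DSS+DCA values lay on both sides of DSS, and its adjusted p was 0.771 (limma).

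Cyp2c66, which lies next to Cyp2c65 (chr19:39113898-39187072), was at 1.28, 1.27 and 0.718 FPKM in DSS and at 3.39, 1.73 and 1.91 FPKM in DSS+DCA. Its groups did not overlap, with means of 1.09 ± 0.322 and 2.34 ± 0.910 FPKM, a 2.15-fold difference with an adjusted p of 0.250 (limma). It shares 25.97% of its 50-base stretches with another gene. Cyp2c68 (chr19:39688834-39741054) was at 4.70, 2.52 and 3.48 FPKM in DSS and at 1.46, 0.590 and 2.99 FPKM in DSS+DCA, which overlap, with an adjusted p of 0.298 (limma). Cyp2j6, an epoxygenase relative (chr4:96516138-96553661), was at 18.8, 20.5 and 17.7 FPKM in DSS and at 22.4, 10.2 and 12.6 FPKM in DSS+DCA. Replicate 1 of DSS+DCA was above all DSS values and replicates 2 and 4 were below them. The 10 CYP2C members, of which 4 were tested, summed to 731, 1070.0 and 867 FPKM in DSS and 1102, 301 and 827 FPKM in DSS+DCA.

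CYP3A enzymes oxidise many drugs and steroids and, in the intestine, act on compounds during their uptake. Cyp3a13, the main CYP3A gene of the mouse gut (chr5:137892932-137921619), was at 23.7, 24.6 and 22.6 FPKM in DSS and at 57.6, 14.9 and 32.6 FPKM in DSS+DCA. The DSS libraries were close together, 2 DSS+DCA libraries lay above them and 1 below, and the adjusted p was 0.712 (limma). Cyp3a44 had means of 1.59 ± 0.0431 and 2.51 ± 2.83 FPKM, and Cyp3a25 had means of 1.08 ± 0.595 and 1.58 ± 0.646 FPKM, with adjusted p-values of 0.925 and 0.586 (limma). Cyp3a11, the pregnane X receptor target of mouse liver, stayed at 0.0107 to 0.0349 FPKM in DSS and 0.0651 to 0.0912 FPKM in DSS+DCA, too low to be tested. The fitted value of all 3 tested CYP3A genes was higher and none was called; without DSS+DCA replicate 1 those of Cyp3a13 and Cyp3a44 were lower, and that of Cyp3a44 was lower with a pseudocount of 0.1. Without DSS+DCA replicates 2 and 4 together, a setting chosen after seeing the data, the log2 change was 1.25 for Cyp3a13 and 1.38 for Cyp3a44. Those changes rest on the single remaining DSS+DCA library, replicate 1, which was the highest of all libraries in both genes.

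CYP4F enzymes hydroxylate the end of fatty acid chains, and Cyp4f14 and Cyp4f18 act on leukotriene B4, an attractant of neutrophils. Cyp4f14 (chr17:32905070-32917342) was at 52.4, 44.1 and 51.6 FPKM in DSS and at 45.7, 24.97 and 25.004 FPKM in DSS+DCA. The groups overlapped through DSS+DCA replicate 1, which lay above DSS replicate 2. The means were 49.4 ± 4.57 and 31.9 ± 12.0 FPKM, a 1.55-fold lower level, with a log2 change of -0.67 ± 0.27 and an adjusted p of 0.288 (limma). Without DSS+DCA replicate 1 the change was -0.95 and the adjusted p 0.0211 (limma), past the threshold. That setting called 1246 genes in all, 1116 of them lower. With each library rescaled to its nuclear protein-coding total, the change of Cyp4f14 was -0.23 (adjusted p 0.353, limma). Under quantile normalization it was -0.28 (adjusted p 0.415, limma).

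Cyp4f40 (chr17:32658900-32676914) was at 37.9, 37.0 and 37.4 FPKM in DSS and at 35.2, 29.6 and 26.8 FPKM in DSS+DCA. All DSS+DCA values were below all DSS values, by little in replicate 1, with means of 37.4 ± 0.430 and 30.5 ± 4.27 FPKM and an adjusted p of 0.438 (limma). Its sign is reversed where libraries are rescaled to their nuclear protein-coding total or quantile normalized. Cyp4f13 (chr17:32924688-32947402) was at 11.2, 13.7 and 14.4 FPKM in DSS and 12.5, 12.0 and 12.7 FPKM in DSS+DCA, and Cyp4f16 (chr17:32536558-32551798) was at 10.2, 8.73 and 8.84 FPKM in DSS and 12.5, 8.02 and 5.13 FPKM in DSS+DCA. Both overlapped between the groups.

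Cyp4f18, which is known from myeloid cells (chr8:71988482-72009626), was at 0.675, 0.860 and 1.18 FPKM in DSS and at 2.27, 1.37 and 2.45 FPKM in DSS+DCA. All DSS+DCA values were above all DSS values, with means of 0.906 ± 0.257 and 2.03 ± 0.575 FPKM, a 2.24-fold difference with a log2 change of 0.66 ± 0.20 and an adjusted p of 0.199 (limma). Beside it, the summed level of 8 macrophage markers was 51.0 to 59.5 FPKM in DSS and 48.3 to 61.8 FPKM in DSS+DCA. These sums overlap as FPKM, and the overlap is stated for FPKM only. Of the 7 that were tested, 5 had a higher and 2 a lower fitted value, and none was called. Their median log2 change was 0.25, beside -0.09 over all tested genes. Rescaled to the nuclear protein-coding total, 6 were higher and 1 lower, with a median of 0.43 beside 0.23 over all tested genes. The part of macrophages in the level of Cyp4f18 was not tested. Cyp4f17 had means of 0.702 ± 0.245 and 1.02 ± 0.312 FPKM, with overlapping groups. The 9 CYP4F members, of which 6 were tested, summed to 113, 105 and 114 FPKM in DSS and 109, 76.9 and 74.1 FPKM in DSS+DCA, with Cyp4f14 and Cyp4f40 making up most of the sum.

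Outside the 4F subfamily, Cyp4b1, a fatty acid hydroxylase of the same family (chr4:115624725-115647723), was at 1.08, 2.03 and 1.64 FPKM in DSS and at 3.15, 1.76 and 5.24 FPKM in DSS+DCA. DSS+DCA replicate 2 lay within the DSS range, and the adjusted p was 0.321 (limma). Cyp4v3, the mouse counterpart of human CYP4V2, a retinal disease gene, had means of 0.906 ± 0.147 and 1.62 ± 0.744 FPKM, and Cyp20a1, which has no settled substrate, had means of 1.41 ± 0.243 and 2.31 ± 1.38 FPKM. Neither separated the groups.

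Cyp2e1, which oxidises ethanol, acetone and fatty acids and is abundant in liver and fat (chr7:140763739-140774987), was at 0.0845, 0 and 0.0835 FPKM in DSS and at 5.18, 8.15 and 0.686 FPKM in DSS+DCA. All DSS+DCA values were above all DSS values, but replicate 4 was far under the other 2. The log2 change was 2.11 ± 0.57 with an adjusted p of 0.164 (limma), and no fold is given here because 1 DSS library was listed at 0. Without DSS+DCA replicate 4, its lowest DSS+DCA library, the change was 2.83 and the adjusted p 0.0360 (limma). That setting called 10 genes in all. Because Cyp2e1 entered the test only through its DSS+DCA values, a difference was built in, and this p-value adds no support.

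Markers of fat cells were high in the same libraries as Cyp2e1. The summed level of 5 adipocyte markers was 9.35 to 11.3 FPKM in DSS, and 22.6, 52.3 and 11.7 FPKM in DSS+DCA replicates 1, 2 and 4. Adipoq, the fat hormone adiponectin, was at 0 in all DSS libraries and at 1.33, 6.41 and 0.129 FPKM in DSS+DCA. Fabp4, a lipid carrier of adipocytes and macrophages, was at 1.55, 1.93 and 1.47 FPKM in DSS and at 7.498, 26.8 and 4.27 FPKM in DSS+DCA. Replicate 2 was the highest of the DSS+DCA libraries and replicate 4 the lowest in Cyp2e1, Adipoq, Fabp4, Cidec and Plin1, and in Lep replicate 1 was the highest. All 3 of the adipocyte markers that were tested had a higher fitted value, and none passed the test. Their part in the Cyp2e1 result was not tested. The hepatocyte marker Alb was at most 0.124 FPKM in every library. The summed level of the 8 hepatocyte markers was 44.3 to 49.9 FPKM in DSS, and 28.8, 70.2 and 25.4 FPKM in DSS+DCA replicates 1, 2 and 4. That sum too was highest in replicate 2 and lowest in replicate 4 of DSS+DCA. Of the 5 hepatocyte markers that were tested, 1 had a higher and 4 a lower fitted value, and none was called.

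**Figure D5:**
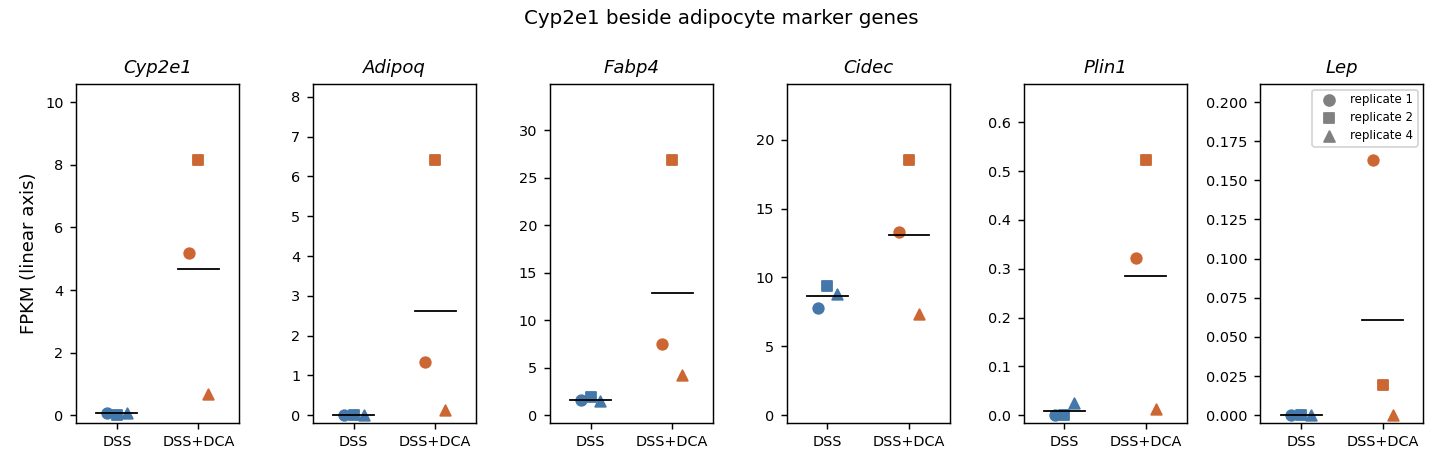
FPKM on linear axes of Cyp2e1 and 5 adipocyte markers by group and replicate, with bars at the group means. Cyp2e1 is at 5.18, 8.15 and 0.686 FPKM in DSS+DCA replicates 1, 2 and 4, and Adipoq is at 1.33, 6.41 and 0.129 FPKM in the same order, with DSS at or near 0 in both.

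The bile acid and oxysterol enzymes were of interest because DCA is itself a product of bile acid metabolism. Cyp27a1, the mitochondrial sterol 27-hydroxylase of the acidic pathway of bile acid synthesis (chr1:74713574-74737892), was at 6.89, 5.28 and 6.40 FPKM in DSS and at 12.8, 7.48 and 12.4 FPKM in DSS+DCA. All DSS+DCA values were above all DSS values, with means of 6.19 ± 0.825 and 10.9 ± 2.94 FPKM, a 1.76-fold difference. The log2 change was 0.70 ± 0.24 and the adjusted p 0.231 (limma), which does not pass the threshold.

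Cyp39a1, which 7-alpha hydroxylates 24-hydroxycholesterol, was at 0.941, 1.59 and 0.963 FPKM in DSS and at 2.25, 0.596 and 1.15 FPKM in DSS+DCA. Those values overlap, with the lowest and the highest both in DSS+DCA. The 4 other enzymes listed, among them Cyp7a1, which stood outside the family by its transcript class, were under 0.5 FPKM in every library. Cyp7b1, the oxysterol 7-alpha hydroxylase, was at 0 to 0.151 FPKM in DSS and 0.0886 to 0.400 FPKM in DSS+DCA. Cyp46a1, the cholesterol 24-hydroxylase of neurons, was at 0.00532, 0.165 and 0.0176 FPKM in DSS and at 0.425, 0.178 and 0.333 FPKM in DSS+DCA, without overlap. Cyp8b1, the sterol 12-alpha hydroxylase needed for cholic acid, had a highest value of 0.0827 FPKM.

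Members that degrade or activate vitamin D, retinoic acid and steroid hormones were near the lower limit of the data. Cyp24a1, the vitamin D 24-hydroxylase induced by the vitamin D receptor, was at 0 in all DSS libraries and at 0.0197, 0.0793 and 0.161 FPKM in DSS+DCA. Cyp2r1, a vitamin D 25-hydroxylase, was at 0.235, 0.434 and 0.313 FPKM in DSS and at 0.151, 0.184 and 0.108 FPKM in DSS+DCA, so DSS+DCA lay below DSS. Cyp27b1, which makes the active hormone, was at 0.0592 to 0.253 FPKM in DSS and 0.0583 to 0.101 FPKM in DSS+DCA. The retinoic acid hydroxylases Cyp26a1 and Cyp26b1 were at most 0.112 and 0.212 FPKM. Of the steroidogenic enzymes, Cyp11a1, which starts steroid synthesis, was at most 0.0578 FPKM, and Cyp11b1, a late step of corticosterone synthesis, was listed above 0 in DSS+DCA replicate 2 only, at 0.0453 FPKM.

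Genes of family 1 and Cyp2s1 are induced by the aryl hydrocarbon receptor. Cyp2s1 (chr7:25802475-25816913) was at 14.1, 15.3 and 15.8 FPKM in DSS and at 28.9, 10.9 and 15.1 FPKM in DSS+DCA. The DSS+DCA values lay on both sides of the narrow DSS range, and the adjusted p was 0.842 (limma). Cyp1a1, the classical target of this receptor, was at most 0.0647 FPKM, and Cyp1b1 was at most 0.0846 FPKM.

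Of the 47 members under a mean of 0.5 FPKM, 34 had a mean under 0.1 FPKM and 36 were listed at 0 in at least 1 library. There were 14 at 0 in all DSS libraries and 5 at 0 in all DSS+DCA libraries. The number of these 47 listed above 0 was 26, 22 and 21 in DSS and 22, 37 and 31 in DSS+DCA, so replicates 2 and 4 of DSS+DCA, the libraries with the high mitochondrial share, listed more of them. The highest single values were 1.35 FPKM for Cyp2j9 in DSS+DCA replicate 1, 0.700 FPKM for Cyp2c69 in DSS replicate 4 and 0.641 FPKM for Cyp2w1 in DSS+DCA replicate 4. Cyp4x1 at 0.560 FPKM and Cyp2u1 at 0.530 FPKM followed, both in DSS+DCA replicate 1. The groups did not overlap in 6 of the 47, against 11% of all 22366 genes under this mean (8.86% higher and 2.1% lower), with 3 higher in DSS+DCA (Cyp24a1, Cyp3a11 and Cyp46a1) and 3 lower (Cyp2r1, Cyp4f37 and Cyp2f2). Cyp4f37 was listed at 0 in all 3 DSS+DCA libraries and at 0.0412 to 0.0984 FPKM in DSS.

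In the authors' deposited table, 4 of the 74 members were marked significant, against 3.17% of all rows. They were Cyp2d26 with a q of 1.7e-05 and a ratio of 3.30, Cyp2e1 with a q of 0.00272 and a ratio of 83.4, Cyp24a1 with a q of 0.0112 and Cyp4f37 with a q of 0.0483, as the authors' deposited table gives them. Of these only Cyp2d26 passed the test used here, and the last pair were too low to be tested.

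Genes that serve or control P450 enzymes were examined as lists. Of 11 tested redox partners, 3 had a higher and 8 a lower fitted value and none was called, with a median log2 change of -0.32; rescaled to the nuclear protein-coding total, 10 were higher and 1 lower. Por, the reductase that supplies microsomal P450 enzymes, was at 21.8, 20.1 and 19.3 FPKM in DSS and 21.04, 7.27 and 15.4 FPKM in DSS+DCA, with an adjusted p of 0.451 (limma). Cyb5a, cytochrome b5, was at 26.4, 28.9 and 27.2 FPKM in DSS and 25.9, 15.4 and 21.05 FPKM in DSS+DCA. As FPKM the groups did not overlap, by little in replicate 1, and the adjusted p was 0.386 (limma). Cyb5r3, the reductase of cytochrome b5, had an adjusted p of 0.414 (limma). Of 12 genes of heme synthesis and breakdown, 3 were higher, 9 were lower and none was called, with a median of -0.16, and the same rescaling turned this to 9 higher and 3 lower. Alas1, the rate-limiting step of heme synthesis, was at 21.7, 22.7 and 21.7 FPKM in DSS and at 22.8, 8.02 and 7.51 FPKM in DSS+DCA, low in replicates 2 and 4 only. Alad, the next step, and Blvrb, a biliverdin reductase, had adjusted p-values of 0.279 and 0.174 (limma).

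Of 20 tested sensors of foreign compounds, sterols and retinoids, 4 were higher, 16 were lower and none was called, with a median log2 change of -0.15. The split was 11 higher and 9 lower under quantile normalization and 16 higher and 4 lower after rescaling. Hnf4a, a nuclear receptor that drives many liver and gut P450 genes, was at 145, 134 and 142 FPKM in DSS and at 101, 85.6 and 78.0 FPKM in DSS+DCA. As FPKM, its groups did not overlap, and its adjusted p was 0.170 (limma). Nuclear protein-coding genes took 20.9% and 24.2% of the summed FPKM in DSS+DCA replicates 2 and 4. In DSS and in DSS+DCA replicate 1 they took 44.8% to 46.0%, so the separation of Hnf4a is stated for FPKM only. The retinoic acid receptor gene Rarg and the fatty acid sensor gene Ppara had adjusted p-values of 0.327 and 0.437 (limma). Of 6 tested circadian regulators of P450 genes, 4 were higher and 2 lower, and 1 rose. That gene was Nr1d1, the clock repressor REV-ERB alpha, at 4.54, 6.12 and 4.59 FPKM in DSS and 20.8, 15.7 and 28.2 FPKM in DSS+DCA, with a log2 change of 1.86 ± 0.25 and an adjusted p of 0.0347 (limma). As for Cyp2d26, leaving out any DSS library or DSS+DCA replicate 4 took its adjusted p over 0.05, to between 0.0987 and 0.191. The adjusted p of Nr1d1 was also over 0.05 with no filter on low genes (0.121) and with the replicate number as a block (0.182, limma). Dbp and Tef, clock output factors that activate P450 genes in mouse liver, also had all DSS+DCA values above DSS, with log2 changes of 1.98 ± 0.45 and 1.33 ± 0.25 and adjusted p-values of 0.124 and 0.0865 (limma). The hour at which tissue was taken is not given in the labels.

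P450 enzymes that carry other symbols, with the epoxide hydrolases that act on their products, numbered 4, of which 3 were tested and none was called. Ptgis, the prostacyclin synthase, was at 0, 0.759 and 0.187 FPKM in DSS and at 3.40, 0.745 and 3.62 FPKM in DSS+DCA, with an adjusted p of 0.192 (limma), and Ephx1 and Ephx2 had adjusted p-values of 0.588 and 0.648. Of 13 tested other oxidising and hydrolysing enzymes, 8 were higher, 5 were lower and none was called. Those with the smallest adjusted p-values were Aldh1a3 (0.112), Fmo2 (0.182) and Adh1 (0.237), by limma.

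The epithelial genes beside which the P450 genes are read were lower in DSS+DCA: all 9 general epithelial markers, all 10 absorptive colonocyte markers and all 8 goblet cell markers had a lower fitted value. Under the other scalings at least 8 of the 9, 8 of the 10 and 8 of the 8 stayed lower. Of these Alpi, an alkaline phosphatase of absorptive cells, and Agr2, a goblet cell folding factor, fell with adjusted p-values of 0.0486 and 0.0346 (limma), and the others did not pass. Without single DSS libraries or DSS+DCA replicate 4, neither passed, with adjusted p-values from 0.0987 to 0.241. Alpi also missed the threshold under quantile normalization (0.0965), after protein-coding rescaling (0.0872) and with a pseudocount of 0.1 (0.0514), and with no filter neither passed (0.132 for Alpi, 0.116 for Agr2). All 8 smooth muscle markers had a higher fitted value here and under the other scalings, and none passed the test. Their median log2 change was 1.39 here and 1.52 to 1.77 under the other scalings. Of 7 fibroblast markers, 2 were higher and 5 lower, and Dcn, the matrix proteoglycan decorin, rose from 0.794, 1.61 and 1.19 FPKM in DSS to 4.85, 3.80 and 4.85 FPKM in DSS+DCA (adjusted p 0.0486, limma). Its adjusted p was over 0.05 without single DSS libraries or DSS+DCA replicate 4 (0.114 to 0.223), with a pseudocount of 0.1 (0.0547) and with no filter (0.148). The summed level of the colonocyte markers was 6503 to 9726 FPKM in DSS and 3304 to 7266 FPKM in DSS+DCA, and that of the goblet cell markers was 4248 to 5413 FPKM and 911 to 2891 FPKM. As FPKM, the colonocyte sums overlapped between the groups, and the goblet cell sums did not. The separation of the goblet cell sums is stated for FPKM only. The part of tissue composition in the levels of the P450 genes was not tested.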

How the data were processed

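RNA from colonic tissue was sequenced in 6 libraries. Per the labels' protocols, poly(A) RNA was isolated on oligo(dT) beads, and dUTP in the second strand kept strand information in paired-end libraries. StringTie 2.1.6, HISAT2 2.2.1, cutadapt 1.9, edgeR and DESeq2 are listed, with no roles, in the submitters' processing notes. Genome build and strand setting: not given in the sources used here.

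Per the file headers, the authors deposited FPKM by gene and library. The authors' ratio of the groups, its log2, and their p-values and q-values are further deposited columns and were used only as description. Whole reads were not recovered: 42.6% to 48.0% of low values lay within 0.05 of a whole number of steps, where chance gives 10%. The depth behind each gene is therefore unknown, and no counting interval is given. No column of per-sample values was left unmapped.

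Genes averaging 0.5 FPKM or more, 14611 in all, entered a two-sided limma 3.58.1 test (R 4.3.3) on log2(FPKM + 1), by lmFit and trended eBayes, of 3 against 3 libraries with no covariates. A gene was called below an adjusted p of 0.05 (Benjamini-Hochberg). Log2 changes are on this scale, which understates changes of low genes. A fold is mean FPKM of one group over that of the other. Means carry the SD and changes the SE. The fit was tested on simulated data. All 74 member identifiers were in GENCODE M21 with the same symbol.

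The members and lists were chosen with earlier results of these data known. Values in each library are given for members called, members averaging 5 FPKM or more, the 10 with the largest fitted change, and enzymes of bile acid, vitamin D, retinoid, steroid and foreign compound metabolism chosen by name. For the lists of pathway genes, called genes or the 3 with the smallest p are named. Other pseudocounts, filters, scalings, a replicate block and leaving out libraries were tried.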

Additional observations from a re-analysis of the deposited data

Results flagged for a closer look

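Among 20 P450 rows left out of the family, Cyp2d41-ps and Cyp7a1 had all DSS+DCA values above all DSS values. Their transcript class had left them out. Of all genes under a mean of 0.5 FPKM, 8.86% were higher in DSS+DCA without overlap. Cyp2d41-ps, an unprocessed pseudogene at chr15:82777931-82782110, lies 7990 bases from Cyp2d26 with no other gene of the table between them. It was listed at 0.0766, 0 and 0 FPKM in DSS and at 0.511, 0.371 and 0.460 FPKM in DSS+DCA, a DSS+DCA mean of 0.447 FPKM. Of the 50-base stretches of the Cyp2d26 coding sequence, 1.03% occur unaltered in Cyp2d41-ps. Cyp7a1, the rate-limiting enzyme of classical bile acid synthesis, is listed as a processed transcript. It was at 0.0432, 0.0195 and 0.0174 FPKM in DSS and 0.0506, 0.0670 and 0.0787 FPKM in DSS+DCA, with a DSS+DCA mean of 0.0654 FPKM.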

How the results depend on the processing

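Cyp2d26 kept its direction in all 14 alternatives with a fit, with log2 changes from 1.48 to 2.09. It passed an adjusted p of 0.05 (limma) in 5 and missed it in 9, over a range of 0.0303 to 0.222. It missed it with a pseudocount of 0.1 (0.0504), with no filter (0.136), under quantile normalization (0.0562) and with the replicate block (0.222), so that 0 P450 genes were called higher there. With 1 library left out, 0 to 1 P450 genes were called higher, 0 to 1 lower, and 0 to 1246 genes in all. The median of the P450 genes then ran from -0.21 to 0.30, and 8 to 13 of them did not overlap, beside 27.9% to 46.3% of all tested genes.

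With no filter, 2 genes were called in all and 13 of 74 P450 genes did not overlap, beside 16.0% of all genes. A minimum mean of 2 FPKM left 18 P450 genes with a median log2 change of -0.20, beside -0.18 over all genes. TMM-style scaling called 132 genes, and an adjusted p under 0.1 called 230. Rescaling to the nuclear protein-coding total gave a median of 0.35 and 11 P450 genes without overlap, all higher, beside 29.5% of all tested genes higher and 5.39% lower. Without DSS+DCA replicates 2 and 4 together, chosen after seeing the data, 3 P450 genes were called higher and 220 genes in all, the median was 0.39 and 21 P450 genes did not overlap, beside 73.6% of all tested genes. That fit rests on 1 DSS+DCA library, assumed to vary like DSS.

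Of the 27 tested genes, 15 never changed sign and 12 did at least once, none of them called in the comparison of all 6 libraries. Under TMM-style scaling Cyp4f13 was at 0.064, and with a pseudocount of 0.1 Cyp3a44 was at -0.051. Rescaling to the protein-coding total gave Cyp2j6 0.034, Cyp2d22 0.16, Cyp2c65 0.14, Cyp4f16 0.22, Cyp4f13 0.35 and Cyp4f40 0.14. Quantile normalization gave Cyp39a1 -0.023, Cyp4f13 0.16, Cyp4f40 0.11, Cyp2c55 0.10 and Cyp2c65 0.16. With 1 library left out, log2 changes ran from -0.21 to 0.30 for Cyp39a1, -0.17 to 0.0019 for Cyp4f13, -0.087 to 0.851 for Cyp3a13 and -0.215 to 0.452 for Cyp2s1. They ran from -0.50 to 0.639 for Cyp3a44, -0.14 to 0.556 for Cyp2d12, -0.821 to 0.11 for Cyp2c55, -0.816 to 0.125 for Cyp2c65 and -0.462 to 0.11 for Cyp4f16. Without replicates 2 and 4 of DSS+DCA together, Cyp4f16 was at 0.39, Cyp2c55 at 0.27, Cyp2c65 at 0.74, Cyp2j6 at 0.23, Cyp2d22 at 0.011 and Cyp2d12 at -0.52. The cause of these changes was not tested.

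Deviations from the group means correlated at -0.14, -0.17 and 0.02 between same-numbered libraries, and no DSS library correlated best with its own number. Taken from 3 libraries per group, these correlations cannot exclude a pairing. With the replicate number as a block, 1 gene was called in all. The depth of each gene is unknown, so differences among members under 0.5 FPKM cannot be weighed against counting error.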

Other observations

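Cyp2a12, which in mouse liver converts deoxycholic acid back to cholic acid, is listed under a retained intron class and so stood outside the family. It was at 0 in 5 libraries and at 0.0205 FPKM in DSS+DCA replicate 4. Cyp1a2 was not among the rows used here.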
